A study of Mus musculus with 16 samples.

Results

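The genes of excitation-contraction coupling and of the calcium store were followed in C2C12 cells. This established mouse line grows as single myoblasts and, in a medium poor in growth factors, forms multinucleated myotubes. The 10 genes were chosen by symbol: *Cacna1s*, *Cacng1*, *Stac3*, *Ryr1*, *Jph2*, *Trdn*, *Casq1*, *Casq2*, *Atp2a1* and *Sln*. The choice was made with earlier results of these data known, so shares of all genes set beside them are for description. Each symbol matched 1 row in each of the 2 count tables, which list 49585 genes. Of the 10, 9 had enough counts to be tested in both tables. *Sln* (chr9:53850164-53854560, plus strand), which encodes the pump inhibitor sarcolipin, had 1 count in WT d8 replicate 1 and 0 counts in the other 15 libraries.

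The RNA-seq data comprised 16 libraries. The first table holds WT and AMPK-KO cells as myoblasts (d0) and after 8 days of differentiation (d8), with 2 libraries in each of the 4 groups. AMPK-KO cells carry CRISPR-Cas9 alterations of *Prkaa1* and *Prkaa2*, the genes of both catalytic subunits of AMP-activated protein kinase. The second table holds undifferentiated (d0) myoblasts that all lack AMPK and carry FLAG-BirA-tagged TET2 knocked in at its own locus, either unmutated (TET2-WT) or with a glutamate at serine 97 that mimics phosphorylation (TET2-S97E). Each knock-in genotype was represented by 2 clones with 2 replicates per clone, so the 4 libraries of a genotype come from 2 clonal lines, and cells with an intact AMPK are not part of that table. The study worked with independent AMPK-KO lines, but the labels do not say which line a library came from, so a difference between AMPK-KO replicates and a difference between lines cannot be told apart. Nor is it stated that replicates were separate cultures, and if they were not, the p-values measure technical spread. The libraries of the first table held between 17883417 and 24663079 counts, and those of the second between 19801909 and 37790358. CPM values below are counts scaled to a common library size, after TMM factors computed within each table, and levels are not compared across tables. Gene positions are those of GENCODE on GRCm38.

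In skeletal muscle, an action potential that enters the T-tubules moves the voltage sensor, the L-type calcium channel complex, which is physically coupled to the ryanodine receptor of the sarcoplasmic reticulum. The receptor then releases calcium held in the store by calsequestrin, and SERCA pumps return it. Myoblasts assemble this machinery only as they differentiate, and myogenic regulatory factors such as MYOD1 and myogenin bind E-boxes, short motifs of the form CANNTG, in many muscle promoters.

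RefSeq promoter windows on GRCm38.p6 (250 bases before to 50 bases after the annotated start) were matched for 6 of the 10 genes, and 4 are printed here because they show how the group differs in E-box content. Each runs 5′ to 3′ on the strand of its gene, and capitals mark each CANNTG match, a motif that reads alike on both strands.
Cacna1s (chr1:136052561-136052860, plus strand): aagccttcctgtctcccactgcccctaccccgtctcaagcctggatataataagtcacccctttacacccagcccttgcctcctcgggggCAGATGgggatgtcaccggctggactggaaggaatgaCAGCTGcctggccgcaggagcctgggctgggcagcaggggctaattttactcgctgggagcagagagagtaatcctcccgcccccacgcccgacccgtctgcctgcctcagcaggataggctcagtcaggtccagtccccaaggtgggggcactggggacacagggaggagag
Casq2 (chr3:102086165-102086464, plus strand): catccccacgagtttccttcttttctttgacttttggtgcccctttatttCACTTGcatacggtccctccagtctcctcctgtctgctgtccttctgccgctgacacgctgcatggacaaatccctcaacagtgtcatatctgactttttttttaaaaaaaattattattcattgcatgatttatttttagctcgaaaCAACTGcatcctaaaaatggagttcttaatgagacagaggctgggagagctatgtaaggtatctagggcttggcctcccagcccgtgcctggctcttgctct
Atp2a1 (chr7:126463024-126463323, minus strand): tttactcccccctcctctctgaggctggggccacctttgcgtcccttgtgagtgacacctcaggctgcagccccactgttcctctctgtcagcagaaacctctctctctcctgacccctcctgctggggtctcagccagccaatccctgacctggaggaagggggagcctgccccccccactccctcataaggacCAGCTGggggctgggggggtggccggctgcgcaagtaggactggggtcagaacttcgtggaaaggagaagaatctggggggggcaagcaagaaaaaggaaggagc
Ryr1 (chr7:29125102-29125401, minus strand): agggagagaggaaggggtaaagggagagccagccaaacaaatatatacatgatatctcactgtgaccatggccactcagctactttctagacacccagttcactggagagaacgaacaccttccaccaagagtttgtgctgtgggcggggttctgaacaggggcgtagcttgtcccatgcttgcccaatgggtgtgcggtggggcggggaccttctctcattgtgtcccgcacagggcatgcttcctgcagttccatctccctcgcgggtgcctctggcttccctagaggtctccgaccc
CANNTG was present in 5 of the 6 windows and absent from that of *Ryr1*. It occurs in 72.1% of all 27025 promoter windows with 1 window taken per gene symbol. The variant CAGCTG, which is itself a CANNTG match, lay in the windows of 4 genes (*Cacna1s*, *Casq1*, *Jph2* and *Atp2a1*) and in 16.1% of all windows. *Casq2* held CANNTG matches with other central bases. A MEF2-like motif, CTA and TAG with 4 bases between them, was found in 0 of the 6 windows and in 3.7% of all windows, searched on both strands. These are matches of letters and do not show binding.

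The groups were first checked against their labels. *Prkaa1* stood at 159 CPM in both WT d0 libraries and at 79.7 and 78.0 CPM in the AMPK-KO d0 libraries, and the fitted log2 fold change was −1.01 ± 0.13 (SE, adjusted p = 0.0116, edgeR's quasi-likelihood test). *Prkaa2* stood at 1.69 and 1.79 CPM in WT d0 against 0.209 and 0.421 CPM in AMPK-KO d0 (log2 fold change −2.43 ± 0.51, edgeR adjusted p = 0.0527). Both genes were lower in AMPK-KO at d8, with edgeR adjusted p = 0.0419 for *Prkaa1* and 0.019 for *Prkaa2*. The edits are small insertions and deletions within exons, so read counts over the genes do not test for loss of the proteins. *Tet2* ran from 22.5 to 58.4 CPM in TET2-WT and from 7.88 to 22.1 CPM in TET2-S97E, with no overlap and an edgeR adjusted p of 0.0621.

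The myoblast markers *Des*, *Myod1*, *Myf5* and *Cdh15* were present in every library, with summed levels between 966.5 and 3902 CPM, most of it *Des*. *Myod1* moved between groups. It stood at 77.5 and 133 CPM in WT d0, 7.90 and 13.6 CPM in AMPK-KO d0, 144 and 165 CPM in WT d8, and 58.1 and 116 CPM in AMPK-KO d8, and was called lower in AMPK-KO at d0 (log2 fold change −3.29 ± 0.45, edgeR adjusted p = 0.0147) and higher in AMPK-KO d8 than d0 (3.01 ± 0.44, edgeR adjusted p = 0.0217). In the second table *Myod1* ran from 7.14 to 26.2 CPM in TET2-WT and from 27.5 to 147 CPM in TET2-S97E (2.5 ± 0.65, edgeR adjusted p = 0.0496), a call lost with counts summed per clone. Its part in the levels of the coupling genes was not tested. A set of 10 markers of differentiated muscle (*Myog*, *Myh3*, *Ckm*, *Acta1*, *Actn2*, *Ttn*, *Mylpf*, *Tnnt3*, *Tnnc2*, *Mymk*) gave a scale of differentiation. Their summed level was 244 and 171 CPM in WT d0, 26.1 and 20.1 CPM in AMPK-KO d0, 6227 and 8794 CPM in WT d8, and 2184 and 11660 CPM in AMPK-KO d8. In the second table it was 17.9, 20.5, 45.5 and 359.5 CPM in TET2-WT and 6282, 2389, 2019 and 440.0 CPM in TET2-S97E, clone 1 before clone 2. Every TET2-S97E library thus exceeded every TET2-WT library, although the study describes both lines as undifferentiated when sequenced. The closest were TET2-S97E clone 2 replicate 2 at 440.0 CPM and TET2-WT clone 2 replicate 2 at 359.5 CPM. *Acta1* was the most abundant of these markers in most libraries, and *Tnnc2* did not exceed 0.632 CPM in any. How much of the coupling genes' differences moved with this scale was not tested beyond the values given here, and in bulk samples fewer differentiated cells and less RNA per cell cannot be told apart.

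A few libraries stood apart. AMPK-KO d8 replicate 1 was below replicate 2 for all 9 tested genes, by 1.05-fold for *Jph2* and 33.9-fold for *Casq1*. TET2-WT clone 2 replicate 2 had the highest value of the 4 TET2-WT libraries for *Cacna1s*, *Stac3*, *Ryr1*, *Jph2*, *Casq1*, *Casq2* and *Atp2a1*. Within TET2-S97E, clone 1 replicate 1 was high for *Casq1*, and clone 2 replicate 2 had the lowest level of *Cacna1s*, *Cacng1*, *Stac3*, *Ryr1*, *Jph2*, *Casq1*, *Casq2* and *Atp2a1*. Mitochondrial genes took 2.03 to 2.29% of counts in the 4 TET2-S97E libraries and 2.14% in TET2-WT clone 2 replicate 2, against 1.00, 1.14 and 1.38% in the other 3 TET2-WT libraries. In the first table this share was higher in replicate 1 than in replicate 2 in each of the 4 groups. Its part in the results was not tested.

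Differentiation of WT cells raised every gene of the group that could be tested. From d0 to d8, 9 of 9 tested genes rose (edgeR's quasi-likelihood test, adjusted p from 0.0143 to 0.0406), and 0 fell, while 5.78% of the 14329 genes tested were called higher and 6.58% lower. Their median log2 fold change was 4.83, and that of all tested genes was 0.01. All 9 genes also had both d8 libraries above both d0 libraries, as did 31.3% of tested genes. With 2 libraries against 2, an exact permutation test cannot go below p = 0.33.

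Among the voltage sensor genes, *Cacna1s* (chr1:136052750-136119822, plus strand) encodes the pore-forming subunit of the skeletal L-type channel. It stood at 2.07 and 1.79 CPM in WT d0 and at 115 and 177 CPM in WT d8 (log2 fold change 6.23 ± 0.91, edgeR adjusted p = 0.0143). It went from a low level to a prominent transcript. *Cacng1* (chr11:107703218-107716522, minus strand), the gamma subunit of the same channel, stood at 73.9 and 62.9 CPM in WT d0 and at 135 and 167.5 CPM in WT d8 (1.14 ± 0.24, edgeR adjusted p = 0.0271). *Stac3* (chr10:127501686-127508823, plus strand), an adaptor that the channel needs to reach the membrane and to couple to the receptor, stood at 8.20 and 6.83 CPM in WT d0 and at 22.7 and 27.5 CPM in WT d8 (1.74 ± 0.40, edgeR adjusted p = 0.0344). Both partners of the channel were thus already present in WT myoblasts, and their fitted changes were smaller than that of its pore.

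*Ryr1* (chr7:29003344-29125179, minus strand), the calcium release channel of skeletal muscle, stood at 26.0 and 16.3 CPM in WT d0 and at 305 and 425 CPM in WT d8 (log2 fold change 4.11 ± 0.63, edgeR adjusted p = 0.0149). *Jph2* (chr2:163336242-163397993, minus strand), a junctophilin that tethers the sarcoplasmic reticulum to the T-tubule membrane, stood at 215 and 113 CPM in WT d0 and at 422 and 388 CPM in WT d8 (1.31 ± 0.31, edgeR adjusted p = 0.0395). *Trdn* (chr10:33080554-33476709, plus strand), or triadin, links calsequestrin to the receptor and stood at 2.75 and 0.596 CPM in WT d0 and at 51.6 and 110 CPM in WT d8 (5.57 ± 1.10, edgeR adjusted p = 0.0244). The tether was abundant before differentiation, whereas triadin was scarce and its d0 libraries differed 4.61-fold.

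The calsequestrins, which buffer calcium inside the store, had the largest fitted changes. *Casq1* (chr1:172209894-172219868, minus strand), the form of fast skeletal fibres, stood at 0.193 and 0.379 CPM in WT d0 (4 and 7 counts) and at 19.7 and 74.1 CPM in WT d8 (log2 fold change 7.35 ± 1.77, edgeR adjusted p = 0.0406). *Casq2* (chr3:102086415-102146514, plus strand), the form of heart and slow fibres, stood at 7.52 and 6.40 CPM in WT d0 and at 508 and 675 CPM in WT d8 (6.41 ± 0.92, edgeR adjusted p = 0.0143). *Atp2a1* (chr7:126445858-126463108, minus strand), the SERCA1 pump of fast fibres, stood at 11.3 and 10.9 CPM in WT d0 and at 208 and 421 CPM in WT d8 (4.83 ± 0.77, edgeR adjusted p = 0.0154). Exons of *Atp2a1* overlap those of *Rabep2* on the opposite strand, and the sources used here do not state a strand setting for the counting, so reads of the pair cannot be fully separated.

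Most of the group also rose in AMPK-KO cells. From d0 to d8, 8 of 9 tested genes rose in AMPK-KO (edgeR adjusted p from 0.0179 to 0.0474), and 0 fell, while 4.81% of all tested genes were called higher and 4.95% lower. The median log2 fold change of the 9 was 6.72, and that of all tested genes was 0.02. Both d8 libraries were above both d0 libraries for all 9, as for 30.2% of tested genes. *Jph2* was the gene not called, with 132 and 94.5 CPM in AMPK-KO d0 and 244 and 257 CPM in AMPK-KO d8 (1.15 ± 0.31, edgeR adjusted p = 0.0617). With the replicate number as a block, *Jph2* was called (1.18, edgeR adjusted p = 0.0362) and *Cacng1* was not (0.97, edgeR adjusted p = 0.0505).

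In AMPK-KO cells *Cacna1s* had 1 and 0 counts at d0 and reached 22.5 and 140.1 CPM at d8, a ratio of 3086 between the summed counts (exact 95% interval 554 to 121900, counting error only). *Casq1* had 1 and 2 counts at d0 and stood at 1.47 and 49.8 CPM at d8. *Casq2* stood at 0.262 and 0.327 CPM at d0 and at 28.2 and 201 CPM at d8 (log2 fold change 8.57 ± 1.12, edgeR adjusted p = 0.021). The sensor pore and both calsequestrins were therefore at a few counts or under 1 CPM in AMPK-KO myoblasts and higher at d8. *Ryr1* stood at 2.62 and 3.13 CPM at d0 and at 80.9 and 309 CPM at d8 (6.08 ± 0.71, edgeR adjusted p = 0.0179). *Atp2a1* stood at 1.47 and 1.5 CPM at d0 and at 140.3 and 685.5 CPM at d8 (8.12 ± 0.92, edgeR adjusted p = 0.0179). *Stac3* stood at 1.52 and 1.31 CPM at d0 and at 12.8 and 29.6 CPM at d8 (3.90 ± 0.45, edgeR adjusted p = 0.0179). For these 3 genes both AMPK-KO d0 libraries lay below both WT d0 libraries, a difference called for *Stac3* alone, and the d8 levels of the genotypes overlapped. *Trdn* stood at 0.471 and 0.0467 CPM at d0 and at 8.89 and 45.1 CPM at d8 (6.72 ± 1.28, edgeR adjusted p = 0.028). *Cacng1* stood at 65.3 and 48.8 CPM at d0 and at 93.7 and 130.3 CPM at d8 (0.97 ± 0.23, edgeR adjusted p = 0.0461).

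**Figure D1:**
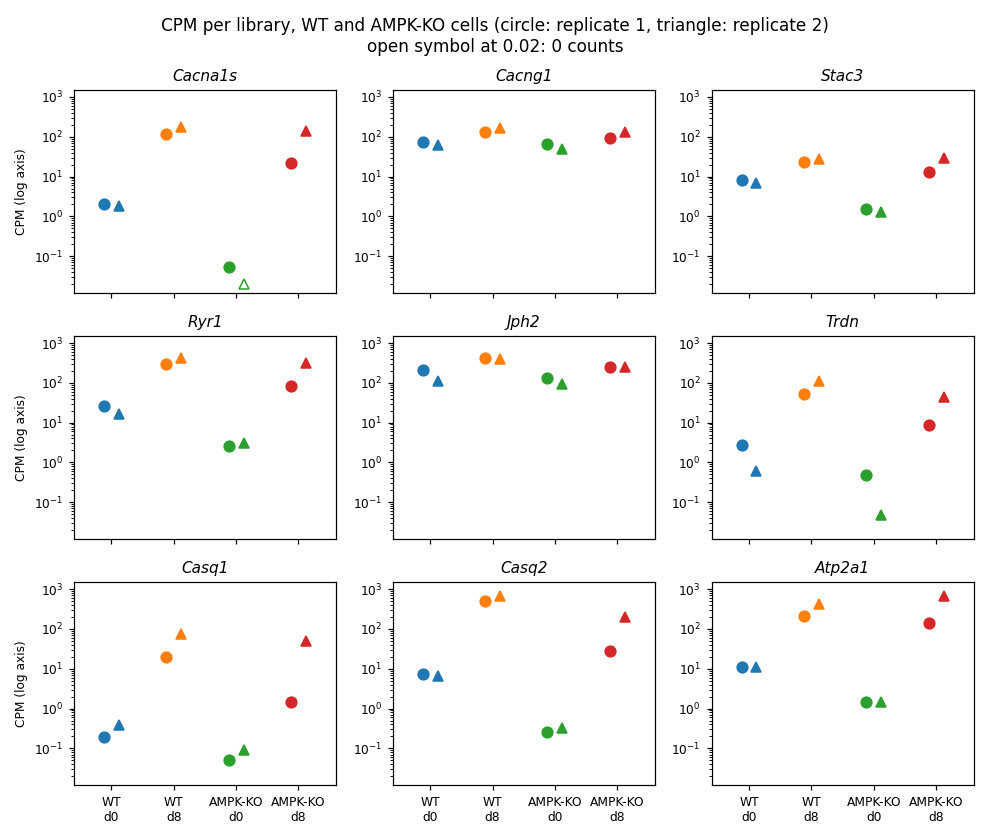
CPM (log axis) of the 9 tested genes in each WT and AMPK-KO library, with circles for replicate 1 and triangles for replicate 2. All genes lie higher at d8 than at d0 in both genotypes, *Cacng1* and *Jph2* span the smallest range, and AMPK-KO d8 replicate 1 lies below replicate 2.

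The calls of differentiation depended on single libraries. In WT, 9 genes were called with all libraries, and fewer without any single WT library or AMPK-KO d0 library. Without WT d0 replicate 2 or either WT d8 library, almost no gene of the whole table was called higher. In AMPK-KO, 8 genes were called with all libraries, and fewer without either AMPK-KO d0 library, either WT d8 library or AMPK-KO d8 replicate 2. Without either AMPK-KO d0 library, almost no gene of the whole table was called in AMPK-KO. Over the fits without a single library, the AMPK-KO log2 fold change ran from 4.785 to 6.749 for *Ryr1* and from 6.535 to 8.856 for *Atp2a1*. For *Jph2* it ran from 0.9414 to 1.385. Without AMPK-KO d8 replicate 1, the library low for the group, the median log2 fold change in AMPK-KO was 7.47. *Casq2* (9.39), *Atp2a1* (8.86) and *Ryr1* (6.75) had larger fitted changes without that library than with it. In every one of these fits all 9 fitted changes stayed positive in both genotypes.

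AMPK-KO cells were set against WT cells before and after differentiation. The AMPK-KO lines are edited, selected and picked clones, so loss of AMPK and differences between clonal lines cannot be told apart. These comparisons share libraries with the differentiation comparisons. At d0, 1 of 9 tested genes was called lower in AMPK-KO and 0 higher, against 2.83% of tested genes called lower and 0.698% called higher. All 9 fitted log2 fold changes were negative, with a median of −2.73, and the median of all tested genes was −0.001. The called gene was *Stac3* (−2.41 ± 0.43, edgeR adjusted p = 0.033). In 7 genes both AMPK-KO libraries lay below both WT libraries, as in 25.7% of tested genes, and *Cacng1* and *Jph2* were the tested genes whose groups overlapped.

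The genes with a large fitted difference at d0 that missed the threshold were *Ryr1* (log2 fold change −2.88 ± 0.64, edgeR adjusted p = 0.0602), *Casq2* (−4.53 ± 1.08, edgeR adjusted p = 0.0723), *Atp2a1* (−2.90 ± 0.78, edgeR adjusted p = 0.0998) and *Cacna1s* (−5.98 ± 1.74, edgeR adjusted p = 0.118). For *Cacna1s* the 76 counts in WT against 1 count in AMPK-KO gave a ratio of 78.6 (exact 95% interval 13.7 to 3143), and for *Casq1* 11 counts against 3 gave a ratio of 3.79 (1.00 to 21.2). These intervals cover counting error only and leave out the spread between replicates. *Trdn* had a fitted value of −2.73 ± 1.33 (edgeR adjusted p = 0.3), with both genotypes spread over several-fold between replicates. *Jph2* and *Cacng1* had fitted log2 fold changes of −0.54 ± 0.31 and −0.26 ± 0.23. The number called lower at d0 was 5 with the DESeq2 Wald test and 6 with no filter on low counts, and both settings also called more of all genes lower. It was 0 when any single WT library or AMPK-KO d0 library was left out, and 5 without AMPK-KO d8 replicate 1 or replicate 2, beside 518 of 15023 and 514 of 15064 genes tested. The markers of differentiated muscle moved alongside, with all 9 tested markers negative and 2 of them, *Mymk* and *Myog*, called lower.

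At d8, edgeR called 0 of 9 genes different between AMPK-KO and WT, while 1.36% of all tested genes were called higher and 3.98% lower. At an unadjusted p under 0.05, 1 gene of the 9 passed, as did 3266 of the 14329 genes tested. DESeq2 called 0 of the 9, and edgeR with no filter on low counts called 6 lower. Both settings also called more of all genes lower. Of the fitted changes, 8 were negative and 1 positive, with a median of −0.84 against 0.04 over all tested genes. *Casq2* had the largest difference, 28.2 and 201 CPM in AMPK-KO against 508 and 675 CPM in WT (log2 fold change −2.37 ± 0.76, edgeR adjusted p = 0.123). Both AMPK-KO libraries lay below both WT libraries for *Casq2*, *Trdn*, *Jph2* and *Cacng1*, as for 27.9% of tested genes. *Atp2a1* lay on the other side with a log2 fold change of 0.39 ± 0.65 (edgeR adjusted p = 0.763), and that sign turned to −1.20 without AMPK-KO d8 replicate 2. Without that library 4 genes were called lower (*Cacna1s*, *Ryr1*, *Casq1* and *Casq2*), beside 372 of 15064 genes tested in that fit. Without AMPK-KO d8 replicate 1 the count was 1 (*Casq2*), beside 180 of 15023. *Casq2* was thus low in both AMPK-KO d8 libraries, whereas *Cacna1s*, *Ryr1* and *Casq1* were below WT d8 in replicate 1 and within its range in replicate 2.

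Whether the d8 against d0 change differed between genotypes was tested with the interaction term. edgeR called 0 of 9 genes and 0 of all 14329 genes tested (0.0% called). At an unadjusted p under 0.05, 4 of the 9 genes and 729 of all genes passed, and DESeq2 called 1 of the 9, *Atp2a1*. With no filter on low counts, edgeR called 5 (*Cacna1s*, *Stac3*, *Ryr1*, *Casq2* and *Atp2a1*), each with a larger change in AMPK-KO. DESeq2 and the unfiltered fit also called genes outside the group. *Stac3* had the lowest p, with a difference of 2.16 ± 0.57 in log2 fold change (edgeR adjusted p = 0.876). The difference was 3.29 ± 1.01 for *Atp2a1*, 5.13 ± 2.05 for *Cacna1s* and 1.97 ± 0.83 for *Ryr1*, each with an edgeR adjusted p of at least 0.876, and −0.16 ± 0.43 for *Jph2*. Whether a difference in induction was called thus depended on the test and on the filter.

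**Figure D2:**
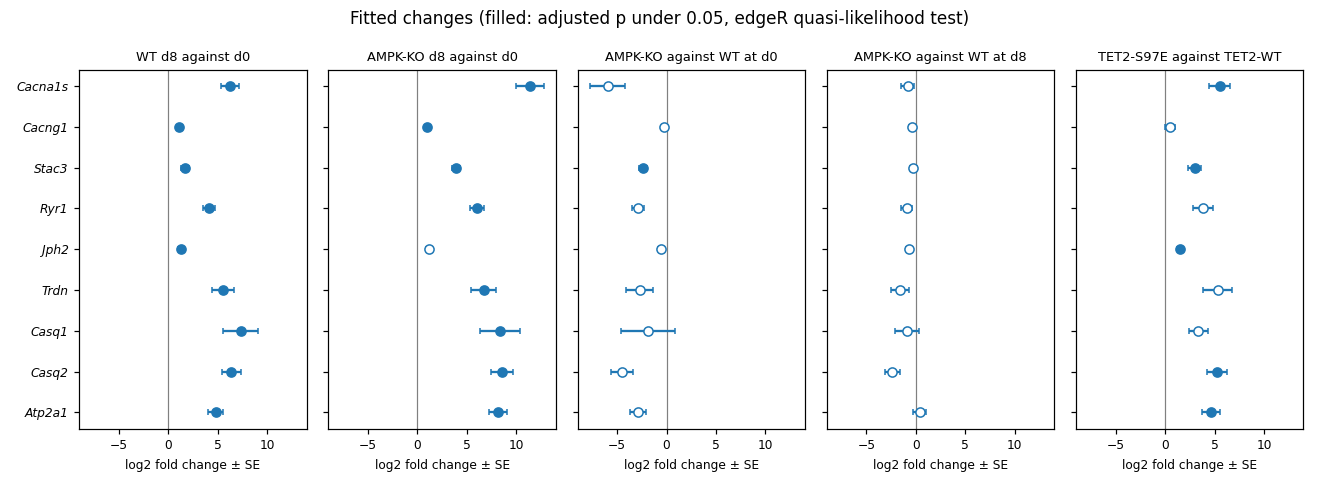
Fitted log2 fold change ± SE of the 9 tested genes in 5 comparisons, filled where the edgeR adjusted p was under 0.05. Both differentiation panels lie to the right of 0, the AMPK-KO against WT panel at d0 lies to the left with *Stac3* as the filled point, the d8 panel has 0 filled points, and the TET2-S97E panel has 5 filled points.

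In the TET2 knock-in cells, TET2-S97E myoblasts had higher levels of several members of the group than TET2-WT myoblasts, in cells without AMPK. With genotype as the factor, 5 of 9 tested genes were called higher and 0 lower, against 3.71% and 3.28% of the 13433 genes tested. The median log2 fold change was 3.81, and that of all tested genes was 0.01. The 5 genes were *Cacna1s*, *Casq2*, *Atp2a1*, *Jph2* and *Stac3*. These calls treat the 4 libraries of a genotype as independent, and they were lost when clones were respected. With counts summed per clone, 0 genes of the group and 0 of all genes were called. With clone as a random effect in limma-voom, 0 of the group were called, although genes outside the group still were, in both directions. All 9 fitted changes remained positive in both of those fits, and those of the 5 genes were of similar size, 5.29 and 5.41 for *Cacna1s*, 5.12 and 4.42 for *Casq2*, 4.39 and 4.96 for *Atp2a1*, 2.82 and 2.96 for *Stac3*, and 1.44 and 1.46 for *Jph2*.

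*Cacna1s* stood at 0.407 and 0.237 CPM in TET2-WT clone 1, 0.595 and 2.99 CPM in TET2-WT clone 2, 117 and 39.3 CPM in TET2-S97E clone 1, and 37.5 and 4.84 CPM in TET2-S97E clone 2. The groups did not overlap, although the lowest TET2-S97E library was near the highest TET2-WT library. The log2 fold change was 5.54 ± 1.06 (edgeR adjusted p = 0.0194), and the adjusted p was 0.305 with counts summed per clone in edgeR and 0.249 with limma-voom. *Stac3* stood at 0.769 and 1.53 CPM in TET2-WT clone 1, 2.15 and 5.24 CPM in TET2-WT clone 2, 37.0 and 20.3 CPM in TET2-S97E clone 1, and 13.4 and 7.29 CPM in TET2-S97E clone 2 (3.0 ± 0.64, edgeR adjusted p = 0.026). *Cacng1* did not separate the genotypes, at 82.2 and 109 CPM in TET2-WT clone 1, 43.6 and 57.8 CPM in TET2-WT clone 2, 158 and 174.5 CPM in TET2-S97E clone 1, and 42.5 and 33.2 CPM in TET2-S97E clone 2 (0.48 ± 0.53, edgeR adjusted p = 0.647). Its TET2-S97E clone 2 lay below every TET2-WT library, and without TET2-S97E clone 1 the fitted change was −0.96.

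*Ryr1* stood at 2.35 and 2.24 CPM in TET2-WT clone 1, 5.40 and 34.7 CPM in TET2-WT clone 2, 260.4 and 264 CPM in TET2-S97E clone 1, and 67.5 and 38.4 CPM in TET2-S97E clone 2 (log2 fold change 3.81 ± 1.02, edgeR adjusted p = 0.0558). The groups did not overlap, and TET2-WT clone 2 replicate 2 reached almost the lowest TET2-S97E library. *Jph2* stood at 53.5 and 62.7 CPM in TET2-WT clone 1, 61.7 and 87.9 CPM in TET2-WT clone 2, 295 and 218 CPM in TET2-S97E clone 1, and 141 and 114 CPM in TET2-S97E clone 2 (1.53 ± 0.30, edgeR adjusted p = 0.0194). Its levels were the most even within genotypes of the genes called.

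*Trdn* had a pattern of its own. It stood at 1.40 and 0.897 CPM in TET2-WT clone 1, 0 and 0.142 CPM in TET2-WT clone 2, 2.57 and 0.325 CPM in TET2-S97E clone 1, and 51.3 and 44.9 CPM in TET2-S97E clone 2 (log2 fold change 5.32 ± 1.5, edgeR adjusted p = 0.065). The fitted change was 1.21 without TET2-S97E clone 2 and 6.26 without TET2-S97E clone 1. Triadin was thus high in TET2-S97E clone 2, and within TET2-S97E clone 1 it lay in the range of the TET2-WT libraries for 1 of 2 replicates.

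*Casq1* stood at 0.0452 and 0.211 CPM in TET2-WT clone 1, 0.137 and 0.606 CPM in TET2-WT clone 2, 7.72 and 0.879 CPM in TET2-S97E clone 1, and 1.61 and 0.523 CPM in TET2-S97E clone 2 (log2 fold change 3.35 ± 0.98, edgeR adjusted p = 0.0725). *Casq2* stood at 0.949 and 1.29 CPM in TET2-WT clone 1, 1.47 and 3.85 CPM in TET2-WT clone 2, 168 and 96.5 CPM in TET2-S97E clone 1, and 25.9 and 4.87 CPM in TET2-S97E clone 2 (5.28 ± 1.02, edgeR adjusted p = 0.0194). *Casq1* groups overlapped in 1 library, and *Casq2* groups did not overlap. *Atp2a1* stood at 2.98 and 2.82 CPM in TET2-WT clone 1, 4.62 and 24.6 CPM in TET2-WT clone 2, 404 and 185.5 CPM in TET2-S97E clone 1, and 241 and 48.3 CPM in TET2-S97E clone 2 (4.64 ± 0.90, edgeR adjusted p = 0.0194). The adjusted p of *Atp2a1* was 0.305 with counts summed per clone in edgeR and 0.0578 with limma-voom.

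In all, 6 of the 10 genes had every TET2-S97E library above every TET2-WT library (*Cacna1s*, *Stac3*, *Ryr1*, *Jph2*, *Casq2*, *Atp2a1*), as did 7.3% of tested genes. For each of these 6 the exact two-sided permutation p was 0.0286 before any correction for multiple tests, the smallest that 4 libraries against 4 can give, and it takes no account of clones. Over the fits that left out 1 library each, the number called ran from 0 to 7. It was 0 without TET2-WT clone 1 replicate 1, clone 1 replicate 2 or clone 2 replicate 1, and 6 without TET2-WT clone 2 replicate 2, with *Ryr1* added (5.58, edgeR adjusted p = 0.00947). Without TET2-S97E clone 1 replicate 1 it was 4, and the fitted change of *Casq1* dropped to 1.94 (edgeR adjusted p = 0.19). Without TET2-S97E clone 2 replicate 2 it was 7, with *Ryr1* (4.14, edgeR adjusted p = 0.0466) and *Casq1* (3.70, edgeR adjusted p = 0.0494) added. In these 3 fits 601, 265 and 473 of all tested genes were called higher. The DESeq2 Wald test called 8, and it also called more of all genes than edgeR, both higher and lower. *Acta2*, the smooth muscle actin that myoblasts also express, stood between 371 and 700 CPM in TET2-WT and between 1013 and 2031 CPM in TET2-S97E (1.77 log2, edgeR adjusted p = 0.00873), and its part in the result was not tested.

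**Figure D3:**
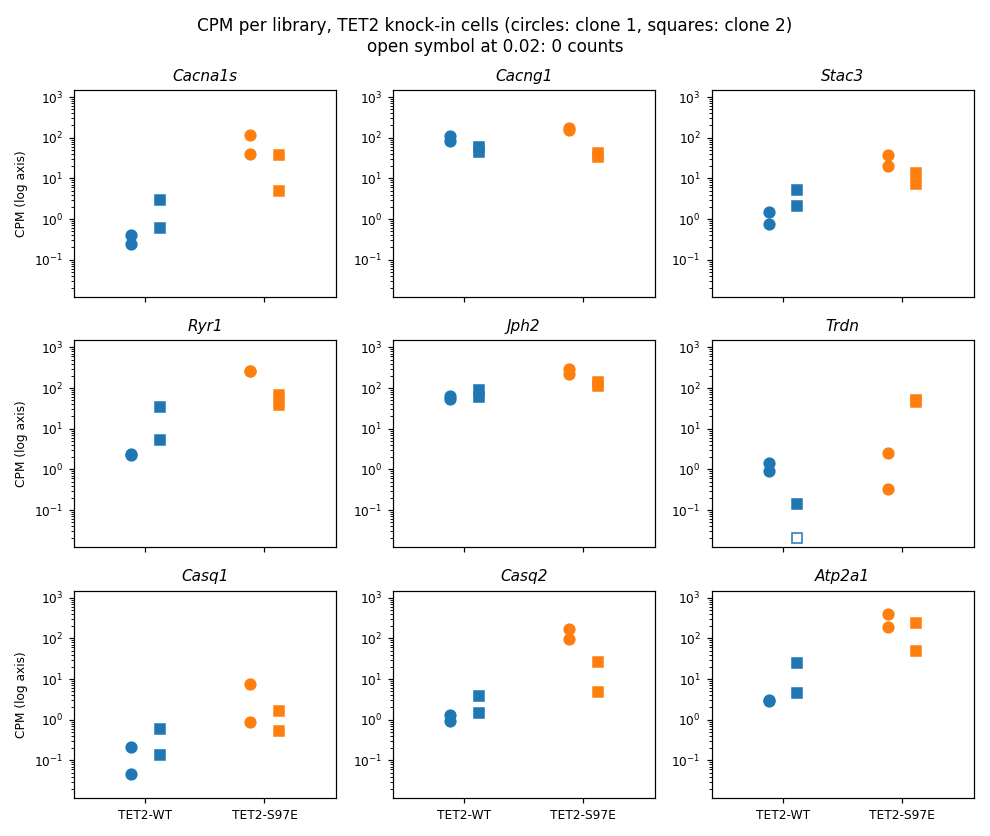
CPM (log axis) of the 9 tested genes in each TET2 knock-in library, with circles for clone 1 and squares for clone 2. Most genes lie higher in TET2-S97E, *Cacng1* separates the clones in both genotypes, and *Trdn* is high in TET2-S97E clone 2 only.

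Clones of the same genotype were compared with each other. Between the TET2-S97E clones, 1 gene of the group was higher in clone 2 (*Trdn*, log2 fold change 5.15 ± 0.71, edgeR adjusted p = 0.00377) and 3 were lower (*Cacng1*, −2.13 ± 0.22, edgeR adjusted p = 0.00129; *Casq2*, −3.12 ± 0.68, edgeR adjusted p = 0.0295; *Jph2*, −1.01 ± 0.23, edgeR adjusted p = 0.0341). Of all 14459 genes tested, 3.35% were called higher and 2.82% lower. The median log2 fold change of the 9 was −1.89, against 0.03 over all genes. Of the 4 myoblast markers, *Cdh15*, *Des* and *Myod1* were also called lower in clone 2. All 8 tested markers of differentiated muscle had negative fitted changes there, and *Myh3* was called lower. Between the TET2-WT clones, edgeR called 0 of 9 genes, while 0.463% of all genes were called higher and 0.394% lower, and 5 of the 9 passed an unadjusted p under 0.05, as did 2957 of the 14459 genes tested, among them *Ryr1* (3.13 ± 0.71, edgeR adjusted p = 0.0826) and *Trdn* (−3.75 ± 1.15, edgeR adjusted p = 0.142). The 8 tested markers of differentiated muscle all had positive fitted changes between the TET2-WT clones, with 0 called, and *Myod1* was called higher in clone 2. The part of these markers in the clone differences was not tested. A clone number names a line within its genotype and does not tie clones across genotypes.

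The order of transcript levels was read from TPM, which divides by exon length. In WT d0, *Cacng1* (195 ± 29.7 TPM, SD, n = 2) and *Jph2* (138 ± 65.3) led and overlapped each other. *Atp2a1* (11.4 ± 0.714), *Stac3* (10.5 ± 1.75) and *Casq2* (9.07 ± 1.38) followed with overlapping ranges, then *Ryr1* (3.47 ± 1.25) and *Cacna1s* (1.05 ± 0.149). The remaining genes *Trdn* and *Casq1* were below 1.1 TPM in each library. In WT d8 the order was led by *Casq2* (796 ± 156 TPM), then *Cacng1* (446 ± 66.7), with *Jph2* (351 ± 22.2) and *Atp2a1* (333 ± 158) overlapping, while *Casq1* (88.4 ± 72.2), *Cacna1s* (82.1 ± 24.4) and *Ryr1* (61.6 ± 14) formed an overlapping run. *Stac3* (36.4 ± 4.80) and *Trdn* (31.7 ± 16) were lowest of the tested genes. In AMPK-KO d8 the highest mean was that of *Atp2a1* (420 ± 389 TPM), which overlapped *Cacng1* (319 ± 69.4), and *Casq2* stood at 148 ± 157. That rank rested on replicate 2, with *Atp2a1* at 695 TPM, since in replicate 1 it stood at 145 TPM, below *Cacng1* (269.8 TPM) and *Jph2* (206.7 TPM). In TET2-S97E, *Cacng1* (250.3 ± 173 TPM, SD, n = 4) and *Atp2a1* (197 ± 129) had the highest means, and each tested gene overlapped the next in the order. The clones differed, with *Cacng1* at a mean of 399.8 TPM in clone 1 and 100.9 TPM in clone 2 and *Atp2a1* at 256.6 and 137.8 TPM. *Atp2a1* thus had the highest mean in clone 2, but that rank rested on replicate 1. In clone 2 replicate 2 *Atp2a1* stood at 46.86 TPM, below *Cacng1* (89.75 TPM) and *Jph2* (90.28 TPM).

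Paralogs told the members' shares within their families apart. *Atp2a2*, the SERCA2 pump found in slow muscle, heart and non-muscle cells, was the main SERCA transcript in every library. Per length, *Atp2a1* made up 3.85 and 3.58% of summed SERCA TPM in WT d0, 0.556 and 0.626% in AMPK-KO d0, 26.2 and 37.0% in WT d8, and 24.3 and 33.8% in AMPK-KO d8. It made up 1.74, 1.86, 2.70 and 12.3% in TET2-WT and 34.4, 36.0, 40.4 and 19.2% in TET2-S97E, clone 1 before clone 2. The fast pump thus gained share at d8 and in TET2-S97E but did not become the larger part. Of the calsequestrins, *Casq2* held at least 71.4% of the summed TPM in every library. *Ryr1* made up 91.2 and 87.3% of ryanodine receptor TPM in WT d0, 38.0 and 41.9% in AMPK-KO d0, and at least 82.3% in each d8 library. It made up 44.4, 48.8, 25.2 and 61.1% in TET2-WT and 90.3, 90.0, 79.6 and 56.1% in TET2-S97E, in the same order, and was thus the smaller part in 3 of the 4 TET2-WT libraries.

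**Figure D4:**
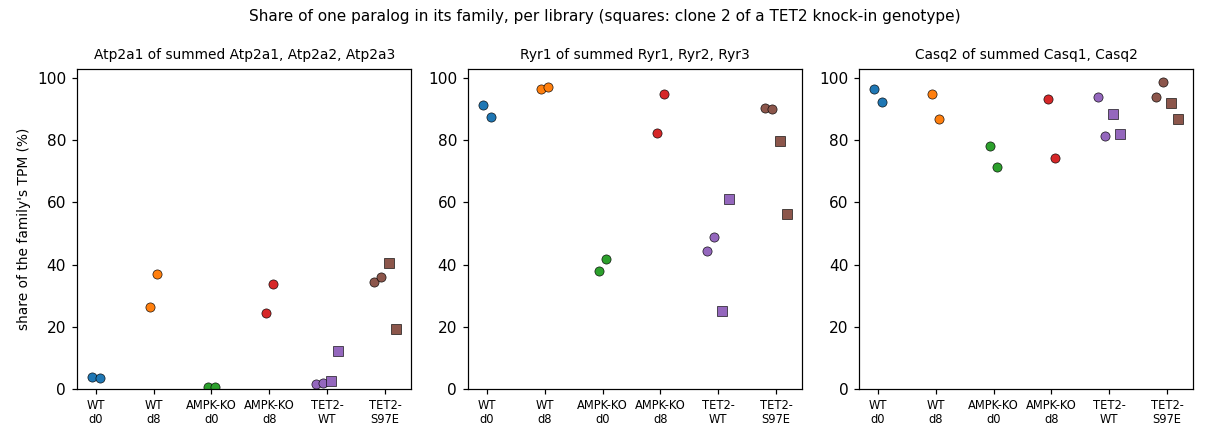
Share (%) of *Atp2a1* in SERCA TPM, of *Ryr1* in ryanodine receptor TPM and of *Casq2* in calsequestrin TPM, 1 point per library (squares for clone 2). *Atp2a1* stays under 41% in all 16 libraries, and *Ryr1* has the larger share of its family in both WT groups and falls below 42% in both AMPK-KO d0 libraries.

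*Ryr3*, the ryanodine receptor that co-occurs with RYR1 in developing muscle, was the other receptor present. It stood at 2.12 and 2.06 CPM in WT d0 and at 9.86 and 10.8 CPM in WT d8 (log2 fold change 2.30 ± 0.24, edgeR adjusted p = 0.0143), and it rose in AMPK-KO as well (1.99 ± 0.24, edgeR adjusted p = 0.0191). Unlike the 9 genes above, its fitted AMPK-KO against WT value at d0 was positive (0.83 ± 0.24, edgeR adjusted p = 0.117), and the difference from those genes was not tested. *Ryr3* was higher in TET2-WT clone 2 than in clone 1 (2.87 ± 0.31, edgeR adjusted p = 0.00877). The heart forms *Ryr2* and *Cacna1c* had at most a few counts in any library. *Jph1*, the other skeletal junctophilin, rose in WT (2.08 ± 0.34, edgeR adjusted p = 0.016) and was higher in TET2-S97E (1.94 ± 0.45, edgeR adjusted p = 0.0352), a call lost with counts summed per clone or with clone as a random effect, and had a fitted value of 1.04 ± 0.33 in AMPK-KO (edgeR adjusted p = 0.0937). *Atp2a2* had fitted values of 1.18 ± 0.46 in WT (edgeR adjusted p = 0.133), 1.85 ± 0.47 in AMPK-KO (edgeR adjusted p = 0.052) and 1.33 ± 0.35 in TET2-S97E (edgeR adjusted p = 0.0502). *Atp2a3*, a SERCA of non-muscle cells, stood between 0.0816 and 7.85 CPM in the first table, with the highest value in AMPK-KO d0 replicate 1. *Pln*, or phospholamban, did not exceed 0.938 CPM in the first table and ran from 0 to 10.4 CPM in the second, with no call in any comparison.

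A wider list of 59 genes with roles in the same machinery was followed beside the 10. In WT d8 against d0, 17 of 52 tested genes were called higher and 1 lower, beside 5.78 and 6.58% of all genes, with a median log2 fold change of 0.93. *Ryr3*, *Srl*, *Cav3*, *Srpk3* and *Hrc* shared the lowest adjusted p. *Hrc*, a calcium-binding protein of the store, rose by 5.27 ± 0.72 (edgeR adjusted p = 0.0143), and *Cav3*, the muscle caveolin, rose by 8.25 ± 1.03 (edgeR adjusted p = 0.0143). *Sypl2*, or mitsugumin 29, had 0 counts in both WT d0 libraries and 75 counts in WT d8, at least 12.4-fold higher with WT d0 set at 3 counts per library (edgeR adjusted p = 0.0291). *Cacng6*, a gamma subunit, had 1 count in WT d0 and 140 in WT d8, a ratio of 139 (exact 95% interval 24.5 to 5528, counting error only). The gene that fell was *Itpr3*, an IP3 receptor of the endoplasmic reticulum (−0.87 ± 0.14, edgeR adjusted p = 0.0156).

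By role, the called genes were 5 of 7 other store proteins (*Hrc*, *Jsrp1*, *Srl*, *Tmem38a*, *Tmem38b*), 4 of 9 tested genes of the junction and T-tubule, 3 of 7 voltage sensor partners, *Ryr3* and *S100a1* among 10 release channel genes, *Slc8a1* among 9 pumps and small inhibitors, and *Scn4a* among 4 genes of surface excitation. Of 6 genes of store-operated entry only *Orai1* was called, with a log2 fold change of 1.00 ± 0.22 (edgeR adjusted p = 0.0326). In AMPK-KO d8 against d0, 13 of the 52 were called higher and 1, *Itpr3*, lower, beside 4.81 and 4.95% of all genes, with a median of 0.67. The same 5 store proteins were called there, led by *Hrc* (7.41 ± 0.86, edgeR adjusted p = 0.0179), *Srl* (6.11 ± 0.61, edgeR adjusted p = 0.0179) and *Jsrp1* (6.04 ± 0.65, edgeR adjusted p = 0.0179), and *Srpk3*, a kinase expressed in muscle, rose by 6.76 ± 0.82 (edgeR adjusted p = 0.0191).

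Between genotypes, 1 of the 52 genes of the list was called at d0 and 3 at d8, all lower in AMPK-KO, beside 2.83 and 3.98% of all genes called lower. These counts were near the background and describe the genes named, not the list. The d0 call was lost without either AMPK-KO d0 library, and the number at d8 was 0 without either WT d8 library, 1 without AMPK-KO d8 replicate 1 and 6 without AMPK-KO d8 replicate 2. *Jsrp1*, or JP-45, which binds both the voltage sensor and calsequestrin, stood at 30.7 and 30.0 CPM in WT d0 and at 1.15 and 1.5 CPM in AMPK-KO d0 (log2 fold change −4.51 ± 0.62, edgeR adjusted p = 0.0147). At d8, *Cav3* stood at 27.3 and 38.9 CPM in WT and at 0.0408 and 0.632 CPM in AMPK-KO (−6.66 ± 0.91, edgeR adjusted p = 0.0128). *Cacng6* had 140 counts in WT d8 and 0 in AMPK-KO d8, at least 26.7-fold lower (edgeR adjusted p = 0.0214), and *Sypl2* had 75 counts and 0, at least 14.3-fold lower (edgeR adjusted p = 0.0401), with AMPK-KO d8 set at 3 counts per library. *Cav3*, *Cacng6* and *Sypl2* thus stayed at or near 0 in AMPK-KO d8, also in replicate 2, in which *Cacna1s*, *Stac3*, *Ryr1*, *Casq1* and *Atp2a1* were at or above the lower WT d8 library. The median of the 52 was −0.22 at d0 and −0.15 at d8.

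In TET2-S97E against TET2-WT, 7 of 46 tested genes of the list were called higher and 1 lower, beside 3.71 and 3.28% of all genes, with a median log2 fold change of 0.27. With counts summed per clone in edgeR, or with clone as a random effect in limma-voom, 0 genes of the list were called either way. The limma-voom fit still called genes outside the list. Without TET2-WT clone 1 replicate 1, clone 1 replicate 2 or clone 2 replicate 1, 0 genes of the list were called. *Srl*, or sarcalumenin, ran from 5.65 to 22.8 CPM in TET2-WT and from 38.6 to 524 CPM in TET2-S97E (4.45 ± 0.81, edgeR adjusted p = 0.0158). *Hrc* (4.94 ± 0.96, edgeR adjusted p = 0.0201), *Tmem38a*, a potassium channel of the store (2.35 ± 0.49, edgeR adjusted p = 0.024), *Srpk3* (3.94 ± 0.93, edgeR adjusted p = 0.0353), *Dysf*, *Jph1* and *Cacnb1* completed the higher genes. *S100a1*, a calcium-binding modulator of the ryanodine receptor, was lower at 39.4 to 53.7 CPM against 62.1 to 99.2 CPM in TET2-WT (−0.73 ± 0.17, edgeR adjusted p = 0.0361). *Cav3*, *Cacng6* and *Sypl2* stayed at or below 0.202 CPM in all 8 libraries of this table. Between TET2-S97E clones, 2 genes of the list were higher in clone 2, *Atp2b4* (2.71 ± 0.41, edgeR adjusted p = 0.00614) and *Slc8a1* (2.19 ± 0.41, edgeR adjusted p = 0.0158), and 5 lower (*Chrna1*, *Tmem38b*, *Bin1*, *Rrad* and *Mrln*), beside 3.35 and 2.82% of all genes. The lowest adjusted p of the 5 was that of *Chrna1* (−1.59 ± 0.21, edgeR adjusted p = 0.00308), a subunit of the acetylcholine receptor.

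The likeness of single genes to the group was measured as Pearson's r over the 8 libraries of a table between log2 CPM and the mean standardized log2 CPM of the 9 tested genes. Within the first table each of the 9 had r of at least 0.933. In the second, 7 of the 9 had r of at least 0.909, and *Trdn* and *Cacng1* had 0.344 and 0.406. Outside the 10 genes and the wider list, the 5 genes most like the group were *Trim72*, *Lmod2*, *Mymx*, *Trim54* and *Ip6k3* in the first table (r from 0.994 to 0.996) and *Chrng*, *Cdkn1a*, *Tnnt1*, *Trim72* and *Tnni1* in the second (r from 0.987 to 0.992). The libraries share groups and clones, each of the 9 is part of the mean it was set against, and these r are descriptions.

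Markers of blood and heart were low, whereas the 3 smooth muscle markers summed to between 370.6 and 2656 CPM, nearly all of it *Acta2*. *Ptprc* and *Adgre1* had at most 1 count in any library, and *Cd68* was the most abundant blood marker at up to 6.66 CPM. Of the 5 heart markers, *Nppa*, *Myl7* and *Ryr2* had at most 3 counts in any library, and *Myh6* and *Tnni3*, which immature skeletal myotubes can express, brought the summed level to between 2.98 and 6.32 CPM in the d8 libraries and between 9.97 and 23.5 CPM in TET2-S97E. Within each of WT d8, AMPK-KO d8, TET2-S97E clone 1 and TET2-S97E clone 2, the library with the higher sum also had the higher *Casq2*, at 5.21 against 2.98 CPM with *Casq2* at 675 and 508 CPM in WT d8, and at 6.32 against 5.51 CPM with *Casq2* at 201 and 28.2 CPM in AMPK-KO d8. In TET2-S97E the pairs were 14.1 and 13.5 CPM with *Casq2* at 168 and 96.5 CPM in clone 1, and 23.5 and 9.97 CPM with *Casq2* at 25.9 and 4.87 CPM in clone 2. The same order held within both TET2-WT clones, whereas in WT d0 and AMPK-KO d0 it was reversed. The sums there were at most 0.488 CPM in WT d0 and 0.262 CPM in AMPK-KO d0. Across genotypes and clones the order was not the same. The summed markers of differentiated muscle had the order of *Casq2* within WT d0, WT d8, AMPK-KO d8 and every knock-in clone. Within AMPK-KO d0 their order was the reverse. The part of either set of markers in the level of *Casq2* was not tested.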

How the data were processed

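RNA-seq reads of 16 C2C12 libraries were processed by the authors with Trim Galore 0.4.5, STAR 2.5.3a on GRCm38 and featureCounts 1.5.3 on GENCODE M12, and the raw counts per gene were deposited in 2 tables. Strand and multimapping settings are not given in the sources used here. Gene names were matched by identifier to GENCODE M21 for 49326 of 49585 rows.

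Each table was fitted alone with edgeR 4.0.16 in R 4.3.3 (TMM factors, filterByExpr, quasi-likelihood test, Benjamini-Hochberg adjustment over all genes tested, threshold 0.05). The first table used 4 group means, and the second used genotype alone, or 4 clone groups for the clone comparisons. TPM came from the counts and summed exon lengths. A count of 0 was set to a floor of 3 counts per library for bounds, which cover counting error only. Alternatives used DESeq2 1.42.0, limma 3.58.1, other filters and scalings, a replicate block, and fits without single libraries or clones. The fits were tested on simulated data. The genes named are the 10 members, their paralogs, the wider list and the markers. The members and lists were chosen with earlier results of these data known.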

Additional observations from a re-analysis of the deposited data

Results flagged for a closer look

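TET2-WT clone 2 replicate 2 lay far from the other 3 TET2-WT libraries for 3 of the genes, by the gap between the highest library and its nearest neighbour relative to the range of the group (Dixon's 95% critical value for 4 samples). Its levels were 2.99 CPM for *Cacna1s*, 34.7 CPM for *Ryr1* and 24.7 CPM for *Atp2a1*. The summed markers of differentiated muscle were also highest there among the TET2-WT libraries, at 359.5 CPM, and their part in these levels was not tested. TET2-S97E clone 1 replicate 1 lay far from the other 3 TET2-S97E libraries for *Casq1*, at 7.72 CPM. For independent and normally distributed values chance alone marks about 1 in 20 groups, and 18 groups were examined. CPM was not log-transformed for this check, libraries share clones and most of the genes vary together, so that rate need not hold.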

How the results depend on the processing

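No setting called a coupling gene in the direction opposite to the reported calls. The counts of called genes moved as follows, and calls over all genes are given further below. With at least 10 counts required in every library, 5 genes were called higher in WT d8 and 4 in AMPK-KO d8, since fewer genes were tested. With DESeq2, 5 were called lower in AMPK-KO d0, 1 higher for the interaction and 8 higher in TET2-S97E. With no filter on low counts, the numbers were 6 lower at d0, 6 lower at d8, 5 for the interaction and 8 in TET2-S97E. A fit of the 4 libraries compared gave 5 lower at d0. In TET2-S97E, 0 were called with counts summed per clone, with clone as a random effect in limma-voom or without TET2-WT clone 1. Leaving out 1 library at a time gave 0 to 9 higher in WT d8, 0 to 8 higher in AMPK-KO d8, 0 to 5 lower in AMPK-KO d0, 0 to 4 lower in AMPK-KO d8 and 0 to 7 higher in TET2-S97E. In such fits a group's lone library is assumed to vary like the others. Causes were not tested.

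Signs turned only for values that had not been called. Leaving out 1 library at a time, the AMPK-KO against WT value at d8 ran from −1.01 to 0.26 for *Stac3*, from −5.02 to 0.39 for *Casq1* and from −1.20 to 1.14 for *Atp2a1*. The interaction ran from −0.45 to 0.087 for *Cacng1*, from −0.67 to 0.19 for *Jph2*, from −0.47 to 3.41 for *Trdn* and from −3.16 to 2.26 for *Casq1*. Without TET2-S97E clone 1 the *Cacng1* value was −0.96.

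Over all genes, 828 higher and 943 lower in WT d8 became 1335 higher with DESeq2, 1816 and 1477 with no filter, 537 lower in a fit of 4 libraries, and 0 to 2 higher and 0 lower without WT d0 replicate 2, WT d8 replicate 1 or WT d8 replicate 2. For AMPK-KO d8, 689 and 709 became 1285 and 1108 with DESeq2, 1717 and 1322 with no filter, 376 and 412 in a fit of 4 libraries, and 0 and at most 1 without either AMPK-KO d0 library. For AMPK-KO against WT, 100 and 405 at d0 became 335 and 975 with DESeq2 and 573 and 1453 with no filter, and 195 and 571 at d8 became 496 and 1073 and 833 and 1670. With at least 10 counts in every library they were 49 and 155 at d0 and 90 and 187 at d8, and 50 were higher at d0 in a fit of 4 libraries. Without 1 library at a time they fell as low as 4 and 13 at d0 and 7 and 99 at d8. The interaction gave 0, against 26 and 31 with DESeq2 and 268 and 181 with no filter. For TET2-S97E, 498 and 440 became 1057 and 879 with DESeq2, 91 and 75 with limma-voom, 100 and 83 without TET2-WT clone 1, 163 and 137 at the lowest without 1 library, and 0 and 0 with counts summed per clone.

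The replicate numbers are shared by the groups, but the labels tie them to no batch, and only 2 numbers exist. Deviations of same-numbered libraries correlated at 0.13 to 0.369 in the first table and at −0.0542 to 0.539 between clones in the second. With the replicate number as a block the counts of called genes stayed at 9 and 8 higher in WT and AMPK-KO d8, 1 and 0 lower at d0 and d8, 0 for the interaction and 5 in TET2-S97E, and over all genes 172 were higher in AMPK-KO d0 and 329 in AMPK-KO d8. *Cacng1* (0.97) lost and *Jph2* (1.18) gained its call in AMPK-KO d8 under the block.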
